A study of Mus musculus with 19 samples.

Results

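The 37 genes described here encode the proteins of synaptic vesicles and of the synapse, together with 4 general neuronal genes. They were taken by gene symbol from the 21749 rows of the deposited table, where each of the 37 occurs once, and all 37 were among the 20644 genes tested. By role, 13 encode vesicle fusion and vesicle proteins, 5 load or synthesise transmitter, 8 are postsynaptic scaffolds and kinases, 7 are transmitter receptor subunits and 4 mark the neuronal nucleus or cytoskeleton. All values are log2 values, and a difference of 1 on this scale is a doubling.

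The libraries hold ribosome-bound messenger RNA from brain astrocytes of mice of the line labelled Tg(Aldh1l1-EGFP/Rpl10a)JD130Htz on a mixed B6 and FVB background, obtained by translating ribosome affinity purification (TRAP). In these mice the promoter of the astrocyte gene Aldh1l1 drives a ribosomal protein L10a fused to EGFP, and tagged ribosomes are captured on magnetic beads. All 4 groups carry this transgene, and no agent was given. They are 4 libraries of males, 8 of females in metestrus, 3 of females in proestrus (labelled Pro-Day) and 4 of females in estrus. Females were collected in the morning, at the same hour in each stage. Ages and the hour for males are not stated, nor is it stated that libraries stem from different animals, so p-values measure the spread between libraries. The labels also give batches. All male libraries and 5 of metestrus were in batch 4. Of the rest, 2 of metestrus, 2 of proestrus and 3 of estrus were in batch 2, and the last library of each stage was in batch 3.

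Neurons release transmitter when a vesicle, docked by SNARE proteins, fuses with the membrane at a calcium signal, and receptors anchored in the postsynaptic density receive it. Astrocytes wrap these synapses, but most of the 37 genes are regarded as neuronal, and their level in an astrocyte pulldown is commonly used as a gauge of neuronal RNA in it. Here RNA that came along from neurons and RNA translated in astrocytes cannot be told apart, and in bulk samples neither can fewer cells of a type and less RNA per cell. No library of total or unbound RNA was analysed here, so no enrichment is given.

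To compare levels between genes, each value was scaled per kb of transcript, using the median length of a gene's protein-coding transcripts (GENCODE M21, basic set). The median of the 37 genes was 10.20 per kb, against 12.06 for 22 astrocyte markers and 7.21 for all 14862 genes with a length. Among the 37, 14 stood in the top 10% of genes and 21 in the top 25%, and 4 lay below the median of all genes. Snap25, a SNARE protein of the nerve terminal, led them at 15.02 per kb, rank 35 of 14862. Its mean was above that of Slc1a2, the main astrocyte glutamate transporter, at 14.61 per kb. Their ranges over the 19 libraries overlapped, with 14.66 to 15.95 for Snap25 and 14.22 to 14.94 for Slc1a2. Before scaling, the means were 15.67 for Snap25 and 15.69 for Slc1a2, so their order rests on the lengths used. The vesicle SNARE protein gene Vamp2 followed at 13.70 per kb, then Nrgn, a postsynaptic calmodulin-binding protein, at 13.43, the vesicle GTPase gene Rab3a at 13.26 and the postsynaptic kinase gene Camk2a at 12.78. The lowest were Slc17a6 at 4.81, Shank3 at 4.82, Slc32a1 at 5.15 and Gabrb2 at 5.56 per kb. The neighbours Slc17a6 and Shank3 did not differ beyond their spread, since they ranged from 2.98 to 6.02 and from 3.49 to 5.73 per kb over the 19 libraries.

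The groups of roles were not at one level. The median was 10.93 per kb for the nucleus and cytoskeleton genes, 10.81 for the vesicle proteins, 9.79 for the scaffolds and kinases, 8.16 for the receptors and 7.76 for the transmitter genes. None of the 7 receptor genes reached the top 25%, whereas 10 of the 13 vesicle genes did. Of other neuronal genes, the median was 10.14 per kb for 24 other nucleus, axon and cytoskeleton genes, 8.72 for 40 other genes of the release machinery, 7.74 for 47 other postsynaptic genes and 7.66 for 15 markers of cortical excitatory neurons. It was 6.75 for 15 interneuron markers and 3.98 for 7 markers of monoamine and acetylcholine neurons. Those 7 all lay below the median of all genes. Of other cells, the median was 7.94 for 12 oligodendrocyte markers, 7.07 for 11 microglia markers and 4.14 for 14 endothelial and mural markers.

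**Figure D1:**
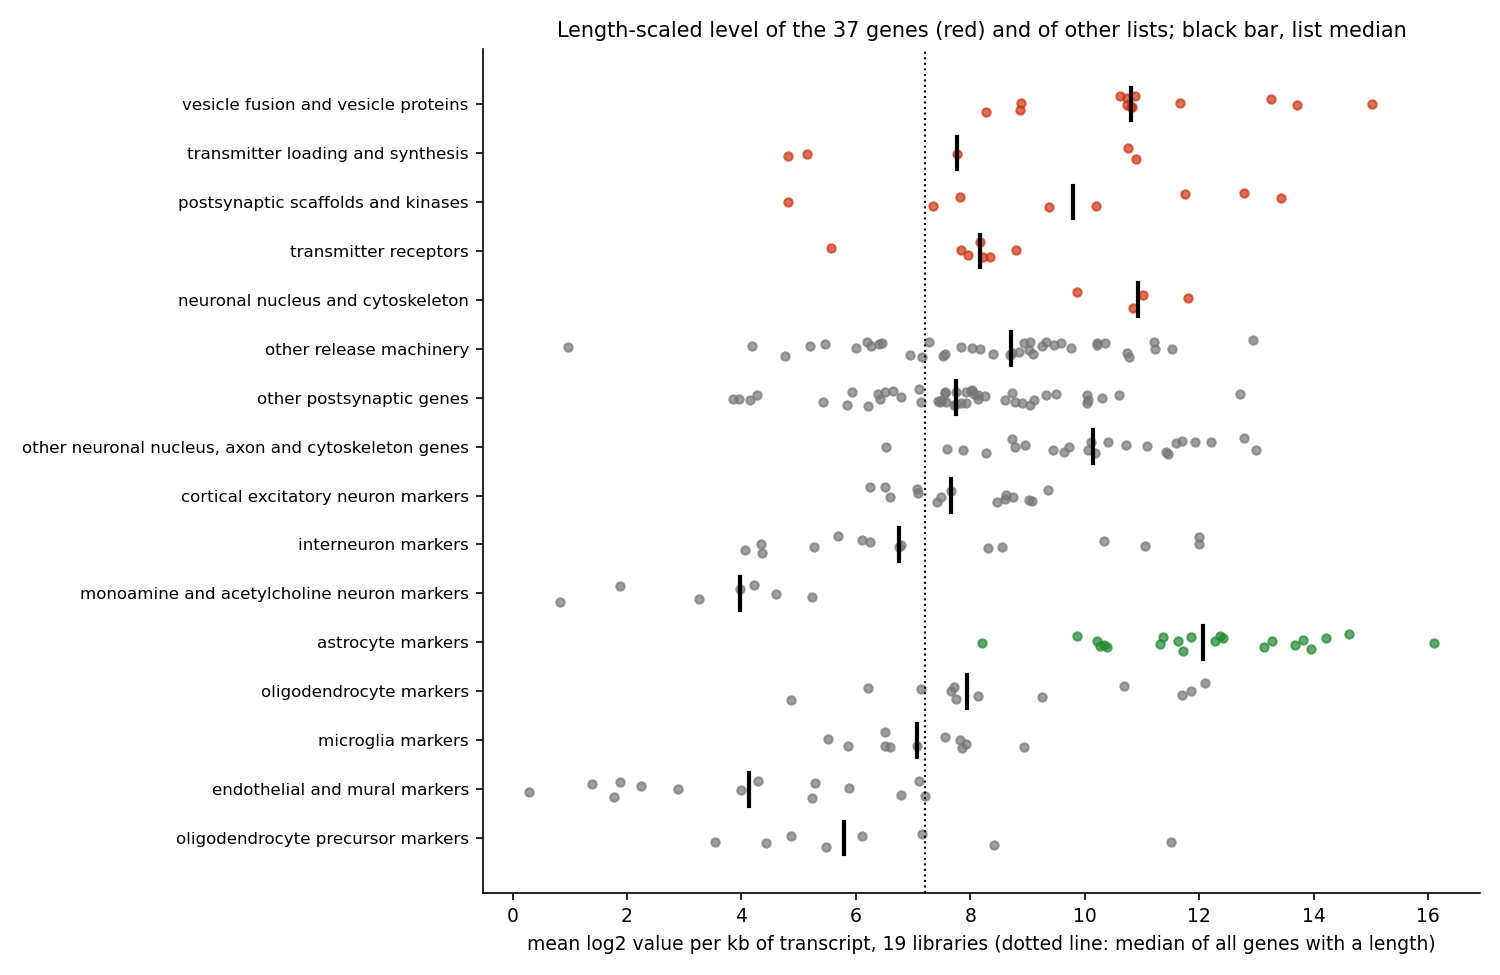
Mean log2 value per kb of transcript over 19 libraries (x axis) for the 37 genes by role (red), astrocyte markers (green) and other lists (grey). Each point is a gene, black bars are list medians, and the dotted line is the median of all genes with a length, 7.21. Vesicle genes, with a median of 10.81, approach the astrocyte markers at 12.06, while several transmitter, scaffold and receptor genes fall left of the dotted line.

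As a group the 37 genes had a similar mean log2 value in every library of the deposited table. The deposited values lack 4 directions of variation between libraries, so differences along those directions cannot be seen. The mean log2 value of the 37 genes ran from 11.28 to 11.68 over the 19 libraries. It was 11.40 ± 0.138 in males (SD, n = 4), 11.40 ± 0.108 in metestrus (SD, n = 8), 11.52 ± 0.176 in proestrus (SD, n = 3) and 11.44 ± 0.0763 in estrus (SD, n = 4), and the ranges of the groups overlapped. Put back on the linear scale, the 37 genes made up 0.842% to 1.23% of the summed values of a library. This share was 0.962% ± 0.0598 in males, 0.927% ± 0.0812 in metestrus, 1.01% ± 0.0843 in proestrus and 1.04% ± 0.134 in estrus (SD, n as before). The highest share, 1.23%, belonged to Estrus 2 (libraries are named by group and number), where Snap25 was also at its highest.

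The mean of the astrocyte markers varied more between libraries than that of the 37 genes, with SDs over all 19 libraries of 0.21 and 0.118 on the log2 scale. As shares of the linear sum they were 2.17% ± 0.221 for the astrocyte markers and 0.971% ± 0.0956 for the 37 genes (SD, n = 19), a spread that is similar relative to each mean. The log2 mean of the astrocyte markers was 13.69 ± 0.102 in males (SD, n = 4), 13.50 ± 0.191 in metestrus (SD, n = 8), 13.39 ± 0.0306 in proestrus (SD, n = 3) and 13.36 ± 0.288 in estrus (SD, n = 4). The lowest value, 12.96, was that of Estrus 4. For each 100 units of summed astrocyte marker signal, the 37 genes summed to 37.6 to 46.8 units in males, 36.9 to 51.0 in metestrus, 42.7 to 48.6 in proestrus and 43.2 to 59.9 in estrus. These ranges overlapped too, and the highest ratio was that of an estrus library.

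**Figure D2:**
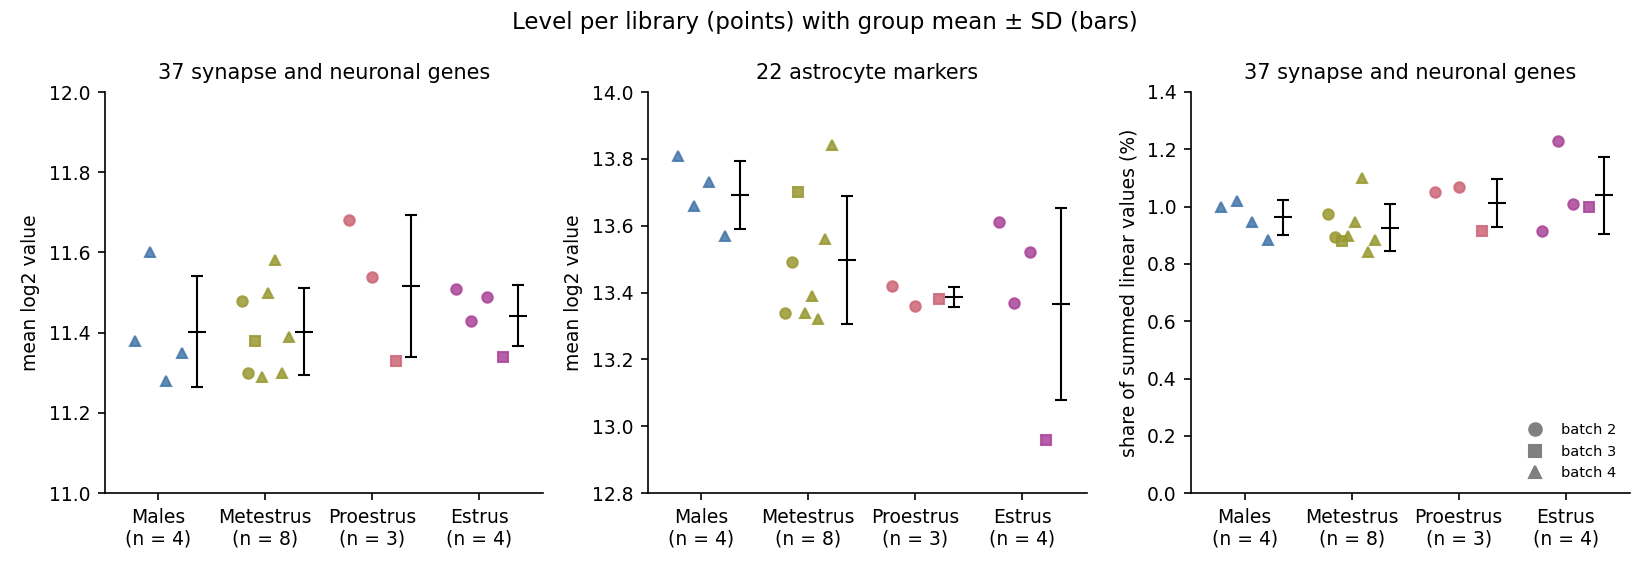
Mean log2 value of the 37 synapse and neuronal genes (left) and of 22 astrocyte markers (middle), and the share of summed linear values taken by the 37 genes (right), in each library by group. Points are libraries with symbols by batch, and bars are group mean ± SD. The left panel spans 11.28 to 11.68 with overlapping groups, and Estrus 4 has the lowest astrocyte mean at 12.96.

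Beneath this level mean, single genes went up and down by library. Syn1, Tubb3, Rab3a, Nefl, Stx1a and Camk2b were all above their own mean in Metestrus 5 and 6, Proestrus 1 and 2 and Estrus 2 and 3. They were all below it in Males 4, Metestrus 3, 4 and 7 and Proestrus 3. These 6 genes were chosen after their values were seen, so their agreement comes from the choice. Whether the 37 genes vary together was not tested. In Estrus 2, Snap25 read 16.59, Rab3a 14.56, Tubb3 12.95 and Stx1a 12.58, against means over all libraries of 15.67, 13.76, 12.21 and 11.84. In the same library Shank3 read 6.32, Map2 11.35, Grin2b 10.39 and Homer1 10.83, against means of 7.65, 12.25, 11.13 and 11.50. Snap25, Rab3a, Tubb3 and Stx1a have short transcripts, with 1565 bases for Snap25 and 1322 for Tubb3. Of the 4 low genes 3 have long transcripts, with 7131 bases for Shank3, 5195 for Map2 and 7484 for Grin2b. Longer transcripts were not all low there. Shank2, with 7918 bases, read 10.60 against a mean of 10.32, and Syn1, with 3235, read 13.12 against 12.50. Over the 37 genes, Spearman's rho between the deviation in Estrus 2 and transcript length was -0.55, and over 14862 genes it was -0.22, which was the lowest of the 19 libraries in both cases. Other libraries had values of like size over the 37 genes, with -0.44 in Males 3, 0.50 in Metestrus 4 and 0.49 in Metestrus 7, and over all genes Metestrus 5 had 0.22.

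GC content was related to the deviations in some libraries, with either sign within a group. Over the 37 genes, rho between deviation and GC content was -0.64 in Estrus 1, 0.54 in Males 1, 0.48 in Males 2, -0.37 in Males 4, -0.35 in Metestrus 3, 0.36 in Metestrus 6 and -0.38 in Metestrus 7. In the other libraries it was between -0.20 and 0.16. Over 14862 genes it ran from -0.26 in Metestrus 7 to 0.27 in Males 2. These correlations are across genes of 1 library, genes are not independent replicates, and the part of length and GC content in the group differences was not tested.

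**Figure D3:**
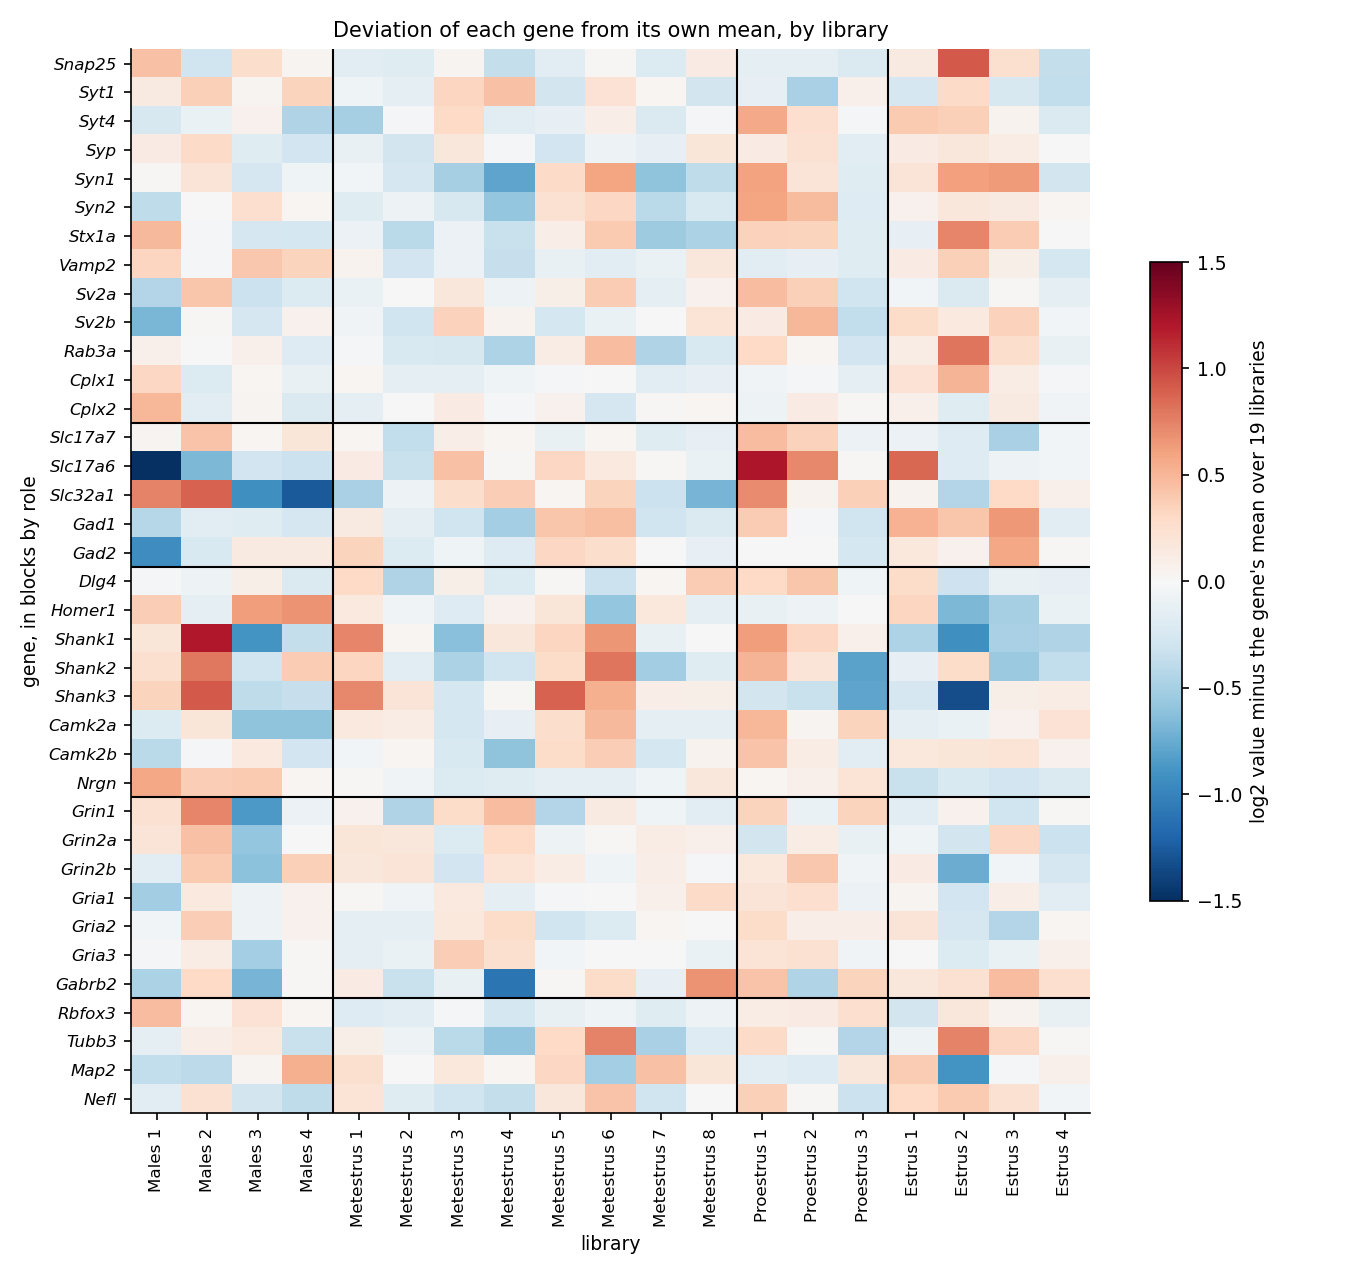
Log2 value of each of the 37 genes (rows, in blocks by role) minus the gene's own mean over 19 libraries, for each library (columns, by group). Red is above and blue below the mean. Estrus 2 shows high Snap25 (16.59) beside low Shank3 (6.32), and no group is red or blue throughout.

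The vesicle fusion genes included Snap25 and Vamp2, the 2 most abundant of the 37 genes per kb. Snap25 (ENSMUSG00000027273.14) read 16.11, 15.37, 15.94 and 15.70 in males, 15.31, 15.51 and 15.80 (lowest, median and highest of 8) in metestrus, 15.52, 15.52 and 15.45 in proestrus and 15.80, 16.59, 15.91 and 15.31 in estrus. The groups overlapped, and Estrus 2 stood highest of all libraries. Syn1, which tethers vesicles to the cytoskeleton, read 12.52, 12.70, 12.25 and 12.44 in males, 11.72, 12.19 and 13.09 (lowest, median and highest of 8) in metestrus, 13.11, 12.69 and 12.33 in proestrus and 12.70, 13.12, 13.14 and 12.23 in estrus. The metestrus libraries alone covered nearly the whole range of the gene. Stx1a, the partner of Snap25 on the target membrane, read 12.32, 11.82, 11.58 and 11.58 in males, 11.31, 11.63 and 12.23 (lowest, median and highest of 8) in metestrus, 12.18, 12.17 and 11.66 in proestrus and 11.72, 12.58, 12.22 and 11.85 in estrus, again with overlap. Syt1, the calcium sensor of fast release, read 13.26, 13.49, 13.17 and 13.47 in males, 12.85, 13.11 and 13.57 (lowest, median and highest of 8) in metestrus, 13.01, 12.64 and 13.20 in proestrus and 12.88, 13.42, 12.89 and 12.75 in estrus, and here Proestrus 2 was the lowest library.

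The other vesicle genes varied over the 19 libraries by 0.58 (Syp) to 1.27 (Rab3a). Vamp2, the SNARE protein on the vesicle, ran from 14.09 to 14.84, Rab3a from 13.29 to 14.56, and the complexins Cplx1 and Cplx2, which clamp the SNARE complex, from 12.59 to 13.30 and 12.87 to 13.63. The vesicle membrane protein genes Syp, Sv2a and Sv2b ran from 11.70 to 12.28, 10.56 to 11.47 and 9.998 to 11.18. Syn2, the second synapsin, ran from 12.08 to 13.26 and the synaptotagmin gene Syt4 from 10.32 to 11.40. Cplx1 had 1 of the smallest SDs within groups among the 37 genes, at 0.15.

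Transmitter genes separated into common and scarce ones. Slc17a7, the vesicular glutamate transporter of most cortical excitatory neurons, read 12.05, 12.44, 12.04 and 12.19 in males, 11.64, 11.97 and 12.10 (lowest, median and highest of 8) in metestrus, 12.47, 12.35 and 11.92 in proestrus and 11.92, 11.81, 11.52 and 11.97 in estrus. Its lowest library was Estrus 3 and its highest Proestrus 1. Slc17a6, the vesicular glutamate transporter found mainly in subcortical neurons, was scarce and read 5.03, 6.19, 6.58 and 6.54 in males, 6.53, 6.93 and 7.31 (lowest, median and highest of 8) in metestrus, 8.07, 7.59 and 6.88 in proestrus and 7.73, 6.67, 6.78 and 6.82 in estrus. Males 1 was the lowest and Proestrus 1 the highest library, 3.05 apart. Slc32a1, which loads GABA and glycine into vesicles, ran from 5.38 to 7.52 and had the largest SD within groups, 0.60, with 7.38, 7.52, 5.72 and 5.38 in males. Those 4 male libraries covered the whole range of the gene.

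Gad1 makes GABA in interneurons and read 11.24, 11.51, 11.49 and 11.41 in males, 11.16, 11.49 and 12.12 (lowest, median and highest of 8) in metestrus, 12.05, 11.64 and 11.37 in proestrus and 12.19, 12.09, 12.32 and 11.51 in estrus. Estrus 3 and Estrus 1 of batch 2 were the highest libraries, and Estrus 4 of batch 3 was in the middle of the metestrus values. Gad2, the second GABA-synthesising enzyme, ran from 9.36 to 10.87.

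Among the postsynaptic genes the Shank scaffolds were the most variable. Shank1 (ENSMUSG00000038738.16) read 10.72, 11.74, 9.65 and 10.19 in males, 9.91, 10.65 and 11.28 (lowest, median and highest of 8) in metestrus, 11.17, 10.85 and 10.62 in proestrus and 10.08, 9.63, 10.05 and 10.09 in estrus. All 4 estrus libraries were below all 3 proestrus libraries, and the low metestrus library, at 9.91, was that of batch 3. Shank3 read 7.98, 8.57, 7.27 and 7.31 in males, 7.39, 7.80 and 8.53 (lowest, median and highest of 8) in metestrus, 7.37, 7.32 and 6.86 in proestrus and 7.40, 6.32, 7.74 and 7.76 in estrus, and the proestrus values were all below those of metestrus. Shank2 ran from 9.51 to 11.12. The SDs within groups were 0.52, 0.48 and 0.50 for Shank1, Shank2 and Shank3, whose transcripts are long (6649, 7918 and 7131 bases) and rich in GC (63.7%, 55.2% and 62.4%).

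Homer1, the scaffold that binds Shank proteins, read 11.87, 11.37, 12.13 and 12.18 in males, 10.92, 11.51 and 11.69 (lowest, median and highest of 8) in metestrus, 11.39, 11.43 and 11.50 in proestrus and 11.83, 10.83, 11.004 and 11.40 in estrus. Males 3 and 4 were its highest libraries and Estrus 2 its lowest. Dlg4, the scaffold PSD-95, read 10.85, 10.80, 10.96 and 10.65 in males, 10.43, 10.90 and 11.26 (lowest, median and highest of 8) in metestrus, 11.17, 11.29 and 10.81 in proestrus and 11.15, 10.56, 10.77 and 10.76 in estrus, with all groups overlapping. Camk2a, the alpha subunit of the calcium/calmodulin kinase of the synapse, read 13.37, 13.77, 12.97 and 12.98 in males, 13.31, 13.57 and 14.06 (lowest, median and highest of 8) in metestrus, 14.07, 13.62 and 13.91 in proestrus and 13.45, 13.48, 13.64 and 13.80 in estrus, and Males 3 and 4 were its lowest libraries. Its beta partner Camk2b ran from 12.09 to 13.12.

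Nrgn was the steadiest of the postsynaptic genes, with an SD within groups of 0.14. It read 14.55, 14.33, 14.36 and 13.9998 in males, 13.76, 13.87 and 14.14 (lowest, median and highest of 8) in metestrus, 13.995, 14.04 and 14.17 in proestrus and 13.63, 13.73, 13.67 and 13.75 in estrus. The estrus values were all below those of metestrus and proestrus, and 3 of the 4 male values were above all others.

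Receptor subunits were at moderate levels with small group differences. Grin1, the subunit that every NMDA receptor contains, read 10.08, 10.58, 8.99 and 9.77 in males, 9.40, 9.85 and 10.32 (lowest, median and highest of 8) in metestrus, 10.18, 9.75 and 10.19 in proestrus and 9.69, 9.91, 9.55 and 9.86 in estrus. Males alone covered its whole range, so the groups cannot be ordered. The further NMDA receptor genes Grin2a and Grin2b ran from 9.71 to 10.73 and 10.39 to 11.54, and the AMPA receptor genes Gria1, Gria2 and Gria3 from 10.07 to 10.88, 11.22 to 12.03 and 9.46 to 10.35. Gabrb2, a beta subunit of the GABA-A receptor, was the scarcest at 5.93 to 7.70.

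Rbfox3 encodes NeuN, the usual nuclear marker of neurons, and read 12.79, 12.35, 12.54 and 12.36 in males, 12.06, 12.19 and 12.31 (lowest, median and highest of 8) in metestrus, 12.43, 12.44 and 12.57 in proestrus and 12.05, 12.49, 12.37 and 12.21 in estrus. All male and all proestrus values were above all metestrus values, by a small margin. The cytoskeletal genes Tubb3, Map2 and Nefl, of neuronal microtubules, dendrites and neurofilaments, ran from 11.62 to 12.95, 11.35 to 12.78 and 12.22 to 13.04.

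**Figure D4:**
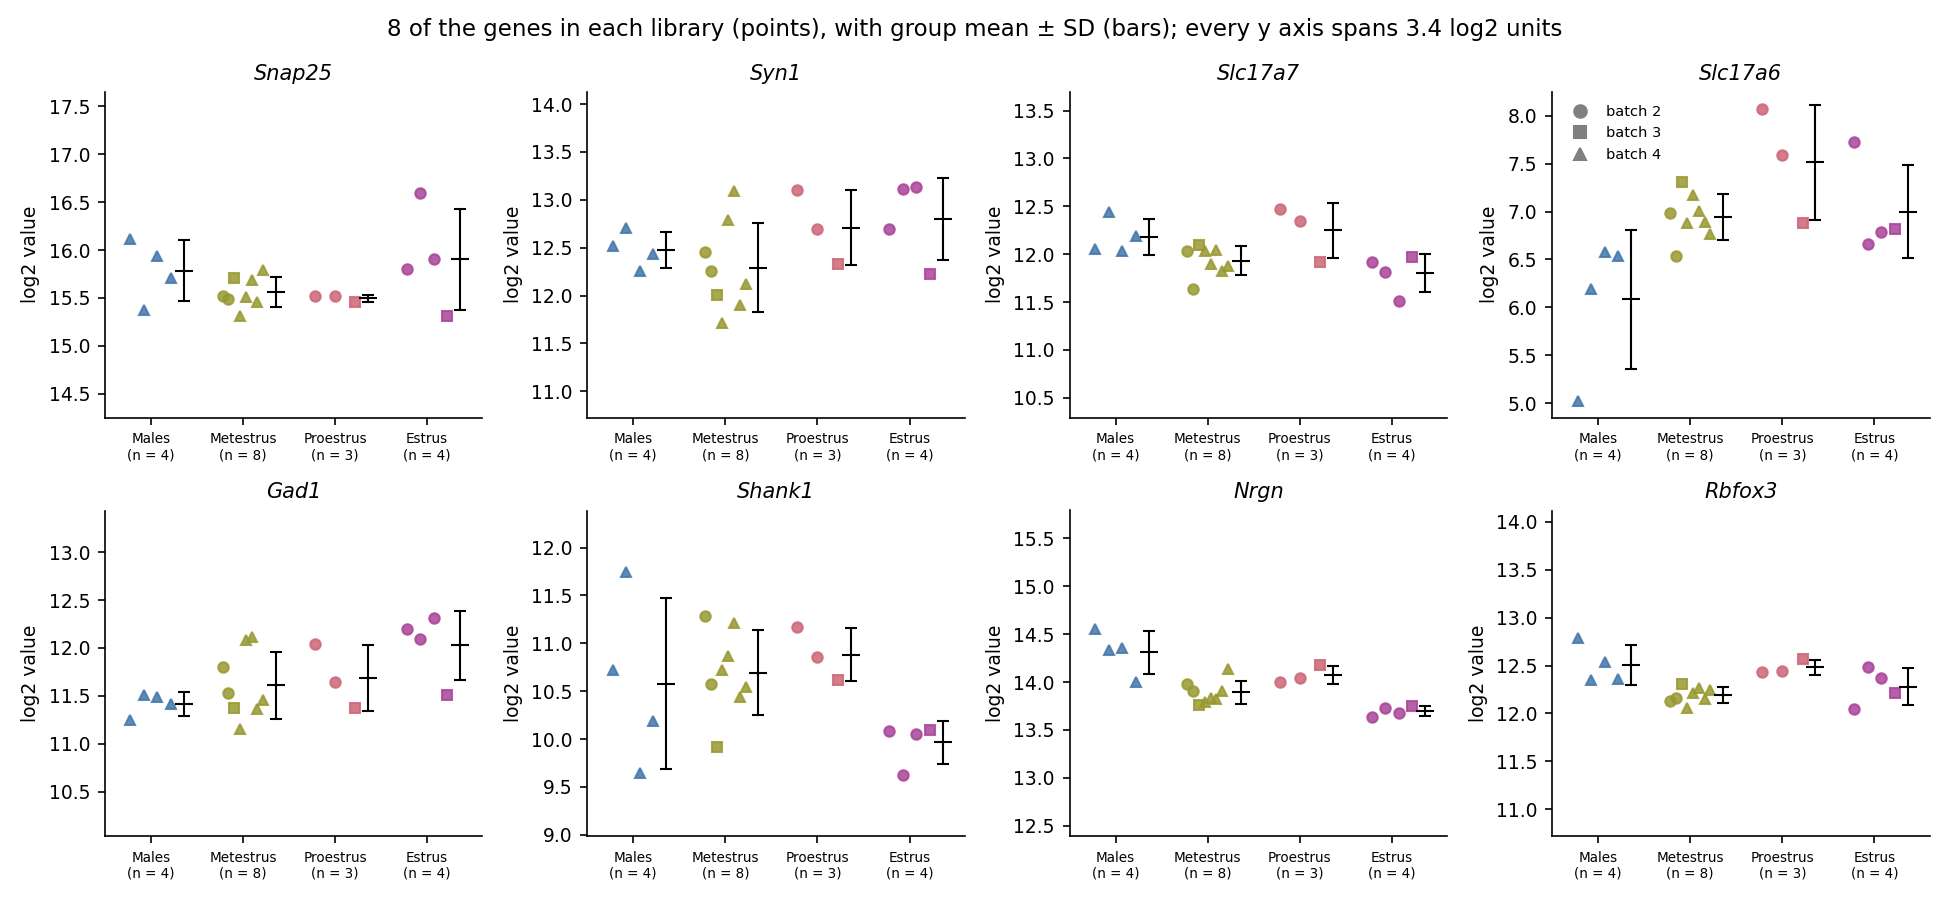
Log2 values of 8 of the genes in each library (points, with symbols by batch) by group, with group mean ± SD (bars). Every y axis spans the same width. Nrgn is tight in all groups (SD within groups 0.14), Shank1 is low in all 4 estrus libraries (9.63 to 10.09), and Slc17a6 is lowest in Males 1 (5.03).

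Some of these genes carry short sequence motifs in their promoters. RefSeq promoter windows, from 250 bases before to 50 after a gene's start on GRCm38.p6, were at hand for 26 of the 37 genes and for 27025 genes in all. The RE1 element is the site of the repressor REST, which silences neuronal genes in other cells. Its core, searched on both strands as AGCACC, any 2 bases and GGACAG, was present in Gad2 and Gria2, which is 7.69% of the 26 genes, against 0.0592% of all windows. The cAMP response element TGACGTCA was present in Syn1, 3.85% of the 26 against 2.03% of all. A TATA box, searched as TATAAA on both strands, was present in Gabrb2, Gad1 and Sv2b, 11.5% against 15.7%. No window of the 26 held more than 1 of the 3 motifs. The windows with an RE1 or cAMP element match are printed, as features that the choice of genes did not use. Gad2 is shown for chr2:22622124-22622217 (plus strand), Gria2 for chr3:80802952-80803045 (minus strand) and Syn1 for chrX:20921030-20921117 (minus strand), each upstream of the gene's start, with the match in capitals. In Gria2 the match lies on the other strand.
Gad2: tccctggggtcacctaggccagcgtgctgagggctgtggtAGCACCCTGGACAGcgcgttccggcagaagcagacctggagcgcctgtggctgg
Gria2: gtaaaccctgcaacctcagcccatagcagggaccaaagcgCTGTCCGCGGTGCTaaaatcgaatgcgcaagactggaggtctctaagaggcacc
Syn1: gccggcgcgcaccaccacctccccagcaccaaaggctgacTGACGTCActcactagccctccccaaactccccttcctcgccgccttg
Gad2, Gria2 and Syn1 did not pass the test in any comparison below, and a match does not show that a factor is bound.

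The male libraries were set against metestrus, which asks whether sex goes with the amount of synaptic RNA in the pulldown. None of the 37 genes passed an adjusted p of 0.05 (limma with group and batch fitted, Benjamini-Hochberg over 20644 genes), where 0.0242% of all tested genes did. At an unadjusted p under 0.05 there were 6, which is 16.2% of the 37, against 5.33% of all genes. This count was 2 without Males 1 and 4 to 8 without any 1 other library. Nrgn averaged 14.31 ± 0.23 in males and 13.90 ± 0.14 in metestrus of the same batch (SD, n = 4 and 5), a log2 fold change of 0.41 (SE 0.12, 95% interval 0.16 to 0.66, adjusted p = 0.759 by limma). Vamp2 had 0.37, Rbfox3 0.32 and Homer1 0.44, while Slc17a6 had -0.86 and Camk2a -0.37, as log2 fold changes of males over metestrus. The 6 genes are of mixed role and sign. With all 8 metestrus libraries counted, Rbfox3 was the gene whose groups did not overlap, 2.7% of the 37 against 1.44% of all genes.

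By role, 10 of 13 vesicle genes had a positive fold change in males against metestrus, and 1 of 5 transmitter, 3 of 8 scaffold, 2 of 7 receptor and 1 of 4 nucleus and cytoskeleton genes. The median of the 37 was -0.04, against 0.04 for all genes, and 17 were positive, 45.9% against 55.3% of all genes. Without Males 3, 22 of the 37 and 5 of the 7 receptor genes were positive and the median was 0.07, and over all leave-outs 15 to 22 were positive, with a median from -0.07 to 0.07. With each library centred on its astrocyte markers, of which 19 of 22 were positive in males against metestrus (median 0.17), 7 of the 37 were positive (29.6% of all genes), 2 of the 13 vesicle genes were positive, and 2 genes had an unadjusted p under 0.05. The intervals of 36 of the 37 genes lay within a log2 fold change of 1 either way, and that of Slc17a6 reached from -1.56 to -0.15.

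Proestrus was set against metestrus in the same fit on all 19 libraries. With batch fitted, the difference rests on batches 2 and 3, which hold 3 libraries of each. None of the 37 genes passed the adjusted threshold (limma), where 0.988% of all tested genes did. At an unadjusted p under 0.05 there was 1, the synapsin gene Syn2, which is 2.7% of the 37 against 13.1% of all genes. The count was 0 without Metestrus 1 or 2 or Proestrus 1 or 2, 2 without Proestrus 3 or Metestrus 6 and 3 without Metestrus 3. It was 1 with median centring, 3 with astrocyte marker centring and 4 without batch. Syn2 averaged 12.95 ± 0.42 in proestrus and 12.49 ± 0.08 in metestrus of these batches (SD, n = 3 each), a log2 fold change of 0.46 (SE 0.21, 95% interval 0.02 to 0.90, adjusted p = 0.361 by limma). The highest fold changes were those of the scarce transporter genes Slc17a6 and Slc32a1, at 0.57 and 0.47, and the lowest those of Shank3 and Syt1, at -0.68 and -0.22 (adjusted p = 0.496 for Shank3 by limma). Over all 8 metestrus libraries, Shank3 and Rbfox3 were the 2 genes whose groups did not overlap. They were 5.41% of the 37, against 8.73% of all genes.

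Most of the 37 genes had a small positive fold change in proestrus against metestrus, none of them called. In all 29 were positive, 78.4% against 41.9% of all genes, and their median was 0.15 against -0.09. They were 10 of 13 vesicle, 4 of 5 transmitter, 6 of 8 scaffold, 6 of 7 receptor and 3 of 4 nucleus and cytoskeleton genes. The astrocyte markers lay on the other side, with 4 of 22 positive and a median of -0.11. Oligodendrocyte markers (7 of 12 positive, median 0.14) and microglia markers (7 of 11, 0.23) had positive medians as well, whereas markers of cortical excitatory neurons (7 of 15, -0.05) and interneurons (7 of 16, -0.01) did not, and their part in the result was not tested. When each of the 6 libraries of batches 2 and 3 in these groups was left out in turn, 24 to 31 of the 37 were positive, with a median from 0.04 to 0.24. With astrocyte marker centring 33 of the 37 were positive, with a median of 0.27. Over all genes 53.2% were then positive, with a median of 0.03. A doubling or halving in the main fit was reached by 0 of the 37, against 19.6% of all genes. The median SE was 0.21 for the 37 and 0.37 for all genes, so these shares compare genes of unlike precision. Of the 37 intervals, 31 lay within a log2 fold change of 1 either way.

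Estrus was set against metestrus in the same way. None of the 37 genes passed the adjusted threshold (limma), where 0.0872% of all genes did, and none had an unadjusted p under 0.05, against 11.3% of all genes. Of the vesicle genes 11 of 13 were positive, with a median of 0.21 against -0.07 for all genes, led by Syn1 at 0.51 (SE 0.25, 95% interval 0.00 to 1.02), Stx1a at 0.42 and Rab3a at 0.40. Of the scaffold and kinase genes 2 of 8 were positive, with a median of -0.16, and of the receptor genes 1 of 7, with a median of -0.09 that is near that of all genes. Shank1 and Shank3 had the lowest values, -0.66 (SE 0.34) and -0.57 (SE 0.38). None of these differences passed the test, and over all 37 genes the median was 0.04 and 21 were positive, 56.8% against 43.5% of all genes.

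The counts by role in estrus varied with the library left out. Without Estrus 2, 11 of 13 vesicle genes, 3 of 8 scaffold genes and 1 of 7 receptor genes were positive, and the medians were 0.15, -0.13 and -0.05. Without Metestrus 3, 12 of 13 vesicle, 2 of 8 scaffold and 4 of 7 receptor genes were positive, and 7 of the 37 had an unadjusted p under 0.05, though none passed after adjustment. This count was 5 without Estrus 4, 3 without Estrus 1 or Metestrus 6, 2 without Metestrus 4 or 5 and 1 without Metestrus 7. It was 4 with median centring, 6 with astrocyte marker centring and 8 without batch. Centring on the astrocyte markers raised the medians of vesicle, scaffold and receptor genes alike, to 0.36, -0.01 and 0.06, and that of all genes to 0.08. Across all 8 metestrus libraries, Nrgn was the gene whose groups did not overlap, 2.7% of the 37 against 3.33% of all genes. All its estrus values were lower (-0.19, SE 0.14).

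Estrus was also set against proestrus. None of the 37 genes passed the adjusted threshold (limma), where 0.94% of all genes did, and 3 had an unadjusted p under 0.05, which is 8.11% against 14.5% of all genes. The count was 5 without Estrus 1, 6 without Estrus 4 and 2 or 3 without any 1 other library. Shank1 averaged 9.96 ± 0.22 in estrus and 10.88 ± 0.28 in proestrus (SD, n = 4 and 3), a log2 fold change of -0.95 (SE 0.34, 95% interval -1.66 to -0.24, adjusted p = 0.183 by limma). It was the lowest fold change of any of the 37 genes in the 4 comparisons. The glutamate transporter gene Slc17a7 had -0.44 (SE 0.17, adjusted p = 0.205 by limma) and Nrgn -0.37 (SE 0.14, adjusted p = 0.193 by limma). A doubling or halving was reached by 0 of the 37, against 18.2% of all genes, with median SEs of 0.20 and 0.35.

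The highest fold changes of estrus over proestrus were those of Snap25 at 0.39 and Gad1 at 0.30. Shank1 and Nrgn (all estrus libraries lower) and Gad2 (all higher) did not overlap between the groups, 8.11% of the 37 against 9.06% of all genes. Within the transmitter group the 3 vesicular transporter genes were negative, with Slc17a6 at -0.53 and Slc32a1 at -0.36, and both GABA synthesis genes positive, with Gad2 at 0.27. In all 16 of the 37 were positive, 43.2% against 52% of all genes, and the median was -0.04 against 0.02. Proestrus and estrus were each compared with the same metestrus libraries, and the estrus and proestrus libraries each enter 2 of these comparisons.

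**Figure D5:**
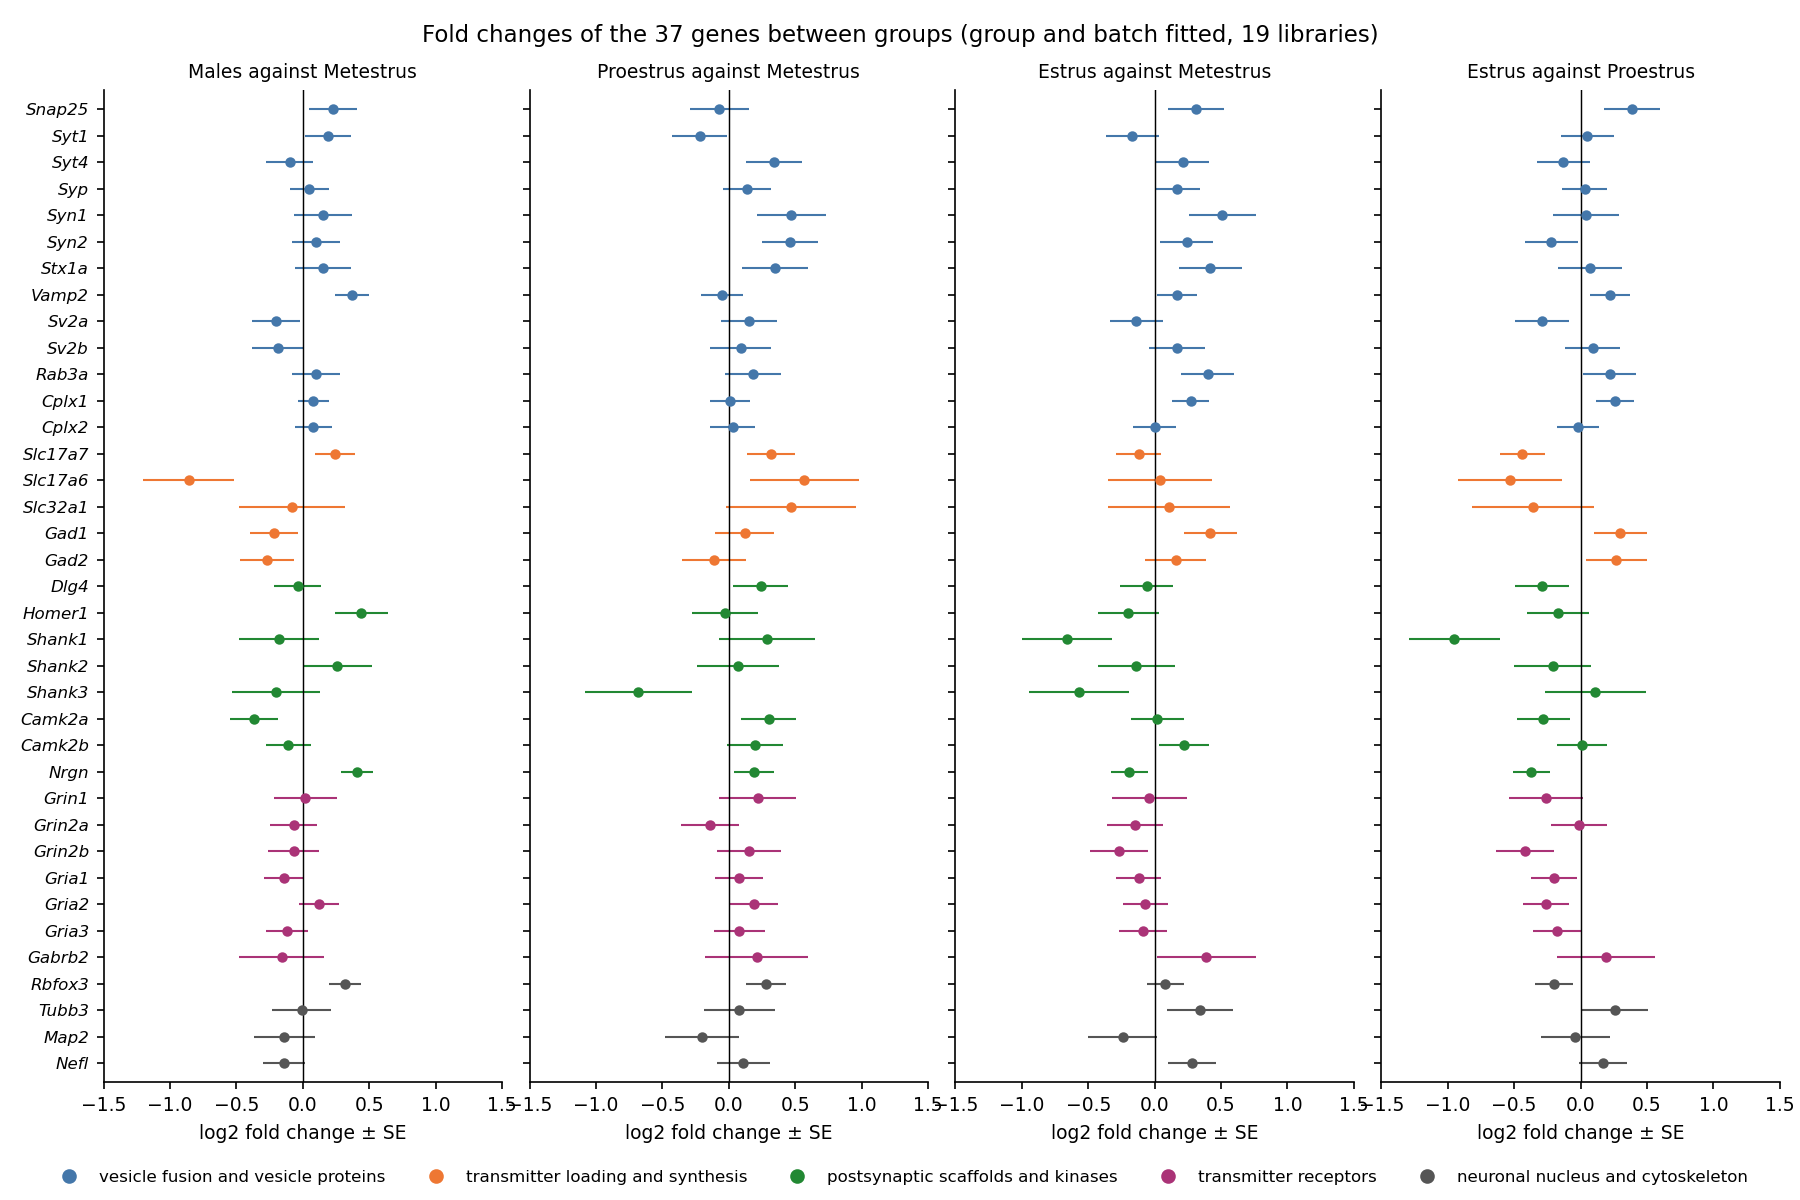
Log2 fold change ± SE of the 37 genes (rows, coloured by role) in 4 comparisons, named with the group on top of the fold change given before its partner. No gene passed an adjusted p of 0.05 in any panel, and the values span -0.95 (Shank1, estrus against proestrus) to 0.57 (Slc17a6, proestrus against metestrus).

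Other neuronal genes were read from the same fits. None of 40 other release genes, 47 other postsynaptic genes, 25 other nucleus, axon and cytoskeleton genes, 15 cortical excitatory neuron markers and 16 interneuron markers passed the adjusted threshold in any comparison (limma). At an unadjusted p under 0.05 they numbered at most 3, 7, 3, 2 and 3 in a comparison. For the release, postsynaptic and excitatory neuron lists this was estrus against proestrus, where 14.5% of all genes had such a p. For the other lists it was estrus against metestrus, where 11.3% of all genes did. In proestrus against metestrus 27 of the 40 release genes were positive with a median of 0.17, and 18 of the 25 nucleus, axon and cytoskeleton genes with 0.16. Of the 47 postsynaptic genes 23 were positive, with a median of 0.00, and the excitatory neuron and interneuron markers had medians of -0.05 and -0.01. Over all genes 41.9% were positive and the median was -0.09. In the order of naming, the medians of the 5 lists were 0.05, -0.10, 0.09, -0.02 and 0.01 in estrus against metestrus (all genes -0.07). They were -0.02, 0.04, 0.00, 0.15 and -0.03 in males against metestrus (all genes 0.04). In estrus against proestrus they were -0.06, -0.04, -0.03, -0.07 and -0.10 (all genes 0.02). The exception among 12 listed markers of monoamine and acetylcholine neurons, of which 7 are among the rows of the table, was Tph2, the serotonin-synthesising enzyme. It averaged 6.87 ± 0.32 in estrus and 4.34 ± 1.16 in proestrus (SD, n = 4 and 3), with an adjusted p of 0.0227 by limma, and of 0.0671 when the directions of variation missing from the deposited values were counted.

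Markers of other cells were read beside the synapse genes. Oligodendrocyte markers were positive in 12 of 12 cases in estrus against metestrus, with a median of 0.32, and Mog, a myelin protein, averaged 8.96 ± 0.42 in estrus and 8.07 ± 0.22 in metestrus of the same batches (SD, n = 4 and 3). Oligodendrocyte precursor markers were positive in 2 of 8 cases, with a median of -0.33, and their mean level was 7.55 to 7.94 in estrus and 7.98 to 8.43 in all 8 metestrus libraries, without overlap. Of these, Lhfpl3 averaged 5.91 ± 0.15 in estrus and 7.64 ± 0.24 in metestrus of the same batches (SD, n = 4 and 3), with an adjusted p of 0.0533 by limma. Endothelial and mural markers had a median of -0.77 in estrus against metestrus and of 0.49 in males against metestrus. The tight junction gene Cldn5 averaged 6.63 ± 0.77 in estrus and 7.37 ± 0.35 in metestrus of the same batches (SD, n = 4 and 3). Microglia markers had medians of 0.23 in proestrus, 0.00 in estrus and -0.08 in males against metestrus. In proestrus 7 of the 11 were positive, and 1, the complement gene C1qa, had an unadjusted p under 0.05. C1qa averaged 8.39 ± 0.10 in proestrus and 7.70 ± 0.27 in metestrus of the same batches (SD, n = 3 each), with an adjusted p of 0.271 by limma. Another microglia marker, Cx3cr1, was not higher, at 7.39 ± 0.48 in proestrus and 7.48 ± 0.40 in all metestrus libraries (SD, n = 3 and 8). None of these markers passed the adjusted threshold (limma), none of the named ones was at 0, and their part in the differences of the synapse genes was not tested.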

How the data were processed

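The deposited table holds log2 values of 21749 genes in 19 libraries (-5.12 to 19.00), made with STAR, Salmon and edgeR on GRCm39 according to the submitters' processing notes. Their scaling and pseudocount are not given in the sources used, and sequencing depth is unknown. Powers of 2 sum to 1.98e+07 to 2.56e+07 per library. The values the authors deposited lack 4 directions of variation between libraries, and 2 of these are not spanned by batch.

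A gene was tested where 3 or more libraries reached a log2 value of 3.32, that is 10 on the linear scale; 20644 genes (94.9%) met this. Group and batch were fitted to all 19 libraries with limma 3.58.1 (limma-trend, robust; R 4.3.3), with 13 residual degrees of freedom, or 11 when the missing directions are counted. Tests were two-sided, adjusted by Benjamini-Hochberg over the 20644 genes and called at 0.05, and the script was tested on simulated data. With batch fitted, differences between stages rest on batches 2 and 3 and those of males on batch 4. Replicate numbers follow deposit order and pair nothing.

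Values per library were given for members past the threshold, the 2 highest and 2 lowest fold changes per comparison, and 1 or 2 genes per role (Snap25, Slc17a7, Gad1, Dlg4, Grin1 and Rbfox3). The members and lists were chosen with earlier results of these data known. Transcript lengths and GC content are medians over protein-coding transcripts of the basic set of GENCODE M21 (GRCm38), which is not the build of the files and was joined by gene ID, and promoters are from RefSeq on GRCm38.p6. Lengths, GC content and figures used Python 3.11.15, pandas 2.3.3, numpy 2.4.6 and matplotlib 3.10.9. Alternatives covered scaling, filters, batch, the missing directions and leaving out libraries. Counts of genes above 0 under these alternatives, and group means within the batches shared by both groups, were added after the data were seen.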

Additional observations from a re-analysis of the deposited data

Results flagged for a closer look

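In groups of 4 to 10 libraries, 57 sets of values (1 gene or level in 1 group each) were searched for a library far from the others of its group, and 2 were found. Chance alone gives about 1 in 20 groups, so this number is not above it. Slc17a6, the vesicular glutamate transporter found mainly in subcortical neurons, read 7.73 in Estrus 1 and 6.67 to 6.82 in the other estrus libraries. Shank1, the postsynaptic scaffold, read 9.63 in Estrus 2 and 10.05 to 10.09 in the other estrus libraries.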

How the results depend on the processing

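None of the 37 genes passed the threshold in any of the 70 alternative fits (limma). Of 672 single-gene values, 650 kept their direction and 22 changed sign, all of them small and uncalled. Many of the 650 could not have changed. With batch fitted, a fold change stays the same under other filters, with the missing directions counted and within the shared batches. It also stays the same without a library of a batch on which the comparison does not rest. The 650 is therefore not a measure of robustness. The values that changed sign were as follows. With astrocyte marker centring they were Snap25 in proestrus against metestrus (0.05), and Slc17a7 (0.03), Dlg4 (0.10) and Grin1 (0.11) in estrus against metestrus. Grin1 in males against metestrus (-0.18) was another. With median centring Grin1 read 0.00 in estrus and -0.02 in males against metestrus. Leaving out 1 library gave -0.01 to 0.39 for Dlg4 and -0.16 to 0.15 for Snap25 in proestrus, -0.32 to 0.11 for Dlg4 and -0.22 to 0.07 for Grin1 in estrus, and -0.11 to 0.06 for Dlg4 and -0.22 to 0.31 for Grin1 in males, each against metestrus. Astrocyte marker centring moved the median of the 37 genes to 0.19 in estrus and -0.24 in males against metestrus, their mean to 11.57 in estrus and 11.21 in males, and the median of all genes to 0.08 and -0.16.

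The share of all tested genes past the threshold depended more on the processing, and the cause was not tested. In proestrus against metestrus the 0.988% became 0.566% with the filter at 5, 5.55% without batch, 0.363% with the missing directions counted, 0.00484% within the shared batches and 0.287% to 0.916% without 1 library. In estrus against metestrus the 0.0872% became 0.0291% with astrocyte marker centring, 0% with the filter at 5, 4.35% without batch, 0% with the missing directions, 0% within shared batches and 0% to 0.269% without 1 library. In estrus against proestrus the 0.94% became 1.5% with median centring, 0.704% with the filter at 5, 1.75% without batch, 0.252% with the missing directions, 0% within shared batches and 0.293% to 2.12% without 1 library. In males against metestrus the 0.0242% became 0.0484% without batch and 0.0242% to 0.0391% without 1 library. No paired analysis was possible because the replicate numbers follow deposit order. Depth is unknown, so what it limits cannot be stated.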
